A study of Mus musculus with 6 samples.

Results

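The 10 genes described here are tendon genes and small leucine-rich proteoglycans, namely Scx, Tnmd, Thbs4, Comp, Cilp, Col11a2, Fmod, Lum, Bgn and Dcn. They were chosen by gene symbol, and all 10 were found once each among the 55995 features of the deposited table. RNA-seq had been made from gastrocnemius, a calf muscle, of NSG mice, an immunodeficient strain, with 3 control and 3 radiotherapy libraries. Every mouse carried a tumour of unmodified (WT) MDA-MB-231 cells, a human breast cancer line, injected with Matrigel below the skin of the left flank. Tumours of the radiotherapy group received 1 local dose of 10 Gy (6 MV X-rays, 6 Gy/min) at about 800 mm3, and the muscle of the other side was collected 3 days afterwards. The labels do not give a dose to the muscle itself. The labels give no age, and no tumour size or collection day for the control group. They do not state that each library is a separate mouse, so the spread behind the p-values is that of these samples and may be technical.

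Tendon is a dense array of collagen fibrils made by tenocytes, whose fate is set by the transcription factor scleraxis. Small leucine-rich proteoglycans are secreted proteins with a core of leucine-rich repeats that bind collagen fibrils, set their diameter and spacing and hold growth factors such as TGF-beta in the matrix. In muscle they are made mostly by fibroblasts of the connective tissue sheaths, and tendon cells adjoin the fibres where muscle ends. RNA of whole muscle mixes these sources, so a larger number of cells of a type and more RNA per cell cannot be told apart in any of the values below.

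The 250 bases before the RefSeq start site are shown for 4 of the genes, because Fmod, Cilp and Tnmd were far lower in radiotherapy replicate 3 than in replicates 1 and 2, and Bgn was the 1 gene above control in all of them. Sequences are from RefSeq on GRCm38.p6 and were matched by symbol, which found 6 of the 10 genes (Fmod, Thbs4, Tnmd, Cilp, Bgn and Col11a2). Capitals mark CANNTG, the E-box letters that basic helix-loop-helix factors such as scleraxis bind, which read the same way on both strands.
Fmod (chr1:134037004-134037253, plus strand): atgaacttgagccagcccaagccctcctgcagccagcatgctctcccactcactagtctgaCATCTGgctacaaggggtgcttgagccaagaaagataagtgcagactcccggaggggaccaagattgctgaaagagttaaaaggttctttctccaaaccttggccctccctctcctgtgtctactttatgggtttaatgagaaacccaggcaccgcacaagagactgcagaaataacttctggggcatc
Cilp (chr9:65264930-65265179, plus strand): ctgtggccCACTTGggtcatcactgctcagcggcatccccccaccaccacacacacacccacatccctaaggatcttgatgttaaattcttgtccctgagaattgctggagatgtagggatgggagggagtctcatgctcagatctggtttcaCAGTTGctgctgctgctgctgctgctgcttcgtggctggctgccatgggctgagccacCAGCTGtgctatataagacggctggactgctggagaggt
Bgn (chrX:73483351-73483600, plus strand): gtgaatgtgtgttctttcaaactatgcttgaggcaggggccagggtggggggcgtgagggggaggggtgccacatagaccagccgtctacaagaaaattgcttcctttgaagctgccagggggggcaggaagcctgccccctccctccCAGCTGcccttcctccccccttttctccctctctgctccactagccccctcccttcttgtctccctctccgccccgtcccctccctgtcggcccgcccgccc
Tnmd (chrX:133850758-133851007, plus strand): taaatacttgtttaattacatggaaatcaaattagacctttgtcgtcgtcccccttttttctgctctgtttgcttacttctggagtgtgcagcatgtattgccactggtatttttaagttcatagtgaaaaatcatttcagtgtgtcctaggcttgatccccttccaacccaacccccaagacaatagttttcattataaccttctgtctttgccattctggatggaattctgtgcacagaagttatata
The letters CANNTG were present in 5 of the 6 windows and in 66.2% of 32807 RefSeq windows of the same length. Cilp held 3 of them, a number reached or passed by 12.2% of all windows, and Tnmd held none. The letters GCGNGGGCG, bound by EGR factors and searched on both strands, were in 0 of the 6 windows and in 4.70% of all windows. These matches describe the letters only.

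Levels are given in TPM, transcript levels that the authors scaled for transcript length and to the same total in each library, and 3 values in a row stand for replicates 1, 2 and 3. No read counts were used, so depth is unknown and the number of libraries limits the precision. The 8 listed genes of skeletal muscle fibres, all 8 tested, summed to 114140, 125880 and 109426 TPM in control. After radiotherapy the sum was 152422, 156428 and 95120 TPM, so defining genes of the labelled tissue were abundant. This sum too lay above every control library in radiotherapy replicates 1 and 2 and below every control library in replicate 3. Radiotherapy replicate 3 stood apart from the other libraries of its group. Of the 11938 features tested, limma called 5 higher and 2 lower with all 6 libraries, and 236 higher and 3298 lower without that one. Calls below are given with and without it. As this library was singled out from these same data, the calls without it are descriptions. Over all tested features the median log2 change, radiotherapy minus control on the log2(TPM + 1) scale, was -0.36, so a gene that kept pace with the rest of the table had a negative value.

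Scx, the scleraxis gene (ENSMUSG00000034161), was at 8.12, 4.51 and 4.83 TPM in the controls and at 16.9, 8.06 and 4.77 TPM in radiotherapy libraries. Only radiotherapy replicate 1 lay above every control library. The group levels were 5.82 ± 2.0 and 9.92 ± 6.29 TPM (SD, n = 3 per group). In GENCODE M21, Scx lies within Bop1 on the opposite strand with no shared exon, and no source used here says whether reads were counted by strand. Bop1, a ribosome assembly gene, was at 23.8, 28.1 and 16.1 TPM in the controls and at 10.2, 8.24 and 22.6 TPM in radiotherapy libraries, in each group highest in the replicate where Scx was lowest. None of the other 9 genes overlapped another gene in that annotation.

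Tnmd, tenomodulin (ENSMUSG00000031250), a membrane protein of mature tenocytes that scleraxis activates, was at 0.30, 0.14 and 0.08 TPM in control. After radiotherapy its level was 0.90, 2.54 and 0.08 TPM. Replicates 1 and 2 were above every control library, and replicate 3 was equal to the lowest of them. With group levels of 0.173 ± 0.114 and 1.17 ± 1.25 TPM (SD, n = 3 per group), Tnmd missed the mean of 1 TPM required for the test.

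Thbs4, Comp and Cilp encode secreted glycoproteins of tendon and cartilage matrix. Thbs4, thrombospondin 4 (ENSMUSG00000021702), which is deposited where muscle joins tendon, was at 6.12, 2.13 and 6.84 TPM in the controls and at 19.45, 15.2 and 3.6 TPM in radiotherapy libraries. Radiotherapy replicates 1 and 2 exceeded all control libraries, while replicate 3 lay within the control range. Comp, cartilage oligomeric matrix protein (ENSMUSG00000031849), a relative of the thrombospondins that links collagen molecules, was at 0.20, 0.09 and 0.15 TPM and at 1.68, 1.55 and 0.02 TPM. Comp also missed the test filter, and its level in radiotherapy replicate 3 was the lowest of the 6. Cilp, cartilage intermediate layer protein (ENSMUSG00000042254), which binds TGF-beta, was at 1.12, 0.47 and 0.66 TPM and at 4.0, 3.11 and 0.22 TPM. For Cilp the groups overlapped because of 1 library, with radiotherapy replicates 1 and 2 above and replicate 3 below every control library.

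Col11a2 (ENSMUSG00000024330) encodes a chain of type XI collagen, a minor fibrillar collagen on which thicker fibrils are built. It was at 1.03, 0.18 and 1.04 TPM in the controls and at 3.21, 2.85 and 0.57 TPM in radiotherapy libraries. Radiotherapy replicates 1 and 2 lay above every control library, and replicate 3 lay between control replicate 2 and the others. Its partner Col11a1, named after its values were seen, was at or below 0.01 TPM in the controls and at 0.05, 0.08 and 0.00 TPM in radiotherapy libraries.

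Fmod and Lum encode fibromodulin and lumican, keratan sulfate proteoglycans that bind the same region of type I collagen. Fmod (ENSMUSG00000041559) was at 3.92, 1.34 and 1.26 TPM in the controls and at 15.7, 13.9 and 0.32 TPM in radiotherapy libraries. Its groups overlapped through radiotherapy replicate 3 alone, which was the lowest of the 6 libraries. The group levels were 2.17 ± 1.51 and 9.99 ± 8.42 TPM (SD, n = 3 per group). Lum (ENSMUSG00000036446) was at 1.79, 1.05 and 2.54 TPM and at 3.01, 2.92 and 0.97 TPM. Over a smaller range, Lum was again above every control library in radiotherapy replicates 1 and 2 and lowest of the 6 in replicate 3. The ratio of Fmod to Lum, chosen after the levels were seen, was 2.19, 1.28 and 0.496 in control and 5.22, 4.77 and 0.330 in radiotherapy libraries.

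Bgn and Dcn encode biglycan and decorin, which carry chondroitin or dermatan sulfate chains and bind TGF-beta. Bgn (ENSMUSG00000031375) was at 10.2, 8.14 and 10.1 TPM in the controls and at 21.1, 19.0 and 11.7 TPM in radiotherapy libraries. It was the 1 gene of the 10 whose groups did not overlap, with every radiotherapy library above every control library, beside 1.73% of all tested features. Replicate 3 exceeded the highest control library by a small margin. Dcn (ENSMUSG00000019929), the most abundant of the 10 genes in every library, was at 129, 97.4 and 155 TPM and at 88.7, 102 and 76.3 TPM. Dcn went the other way, with 2 of the 3 radiotherapy libraries below every control library and radiotherapy replicate 2 inside the control range.

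**Figure D1:**
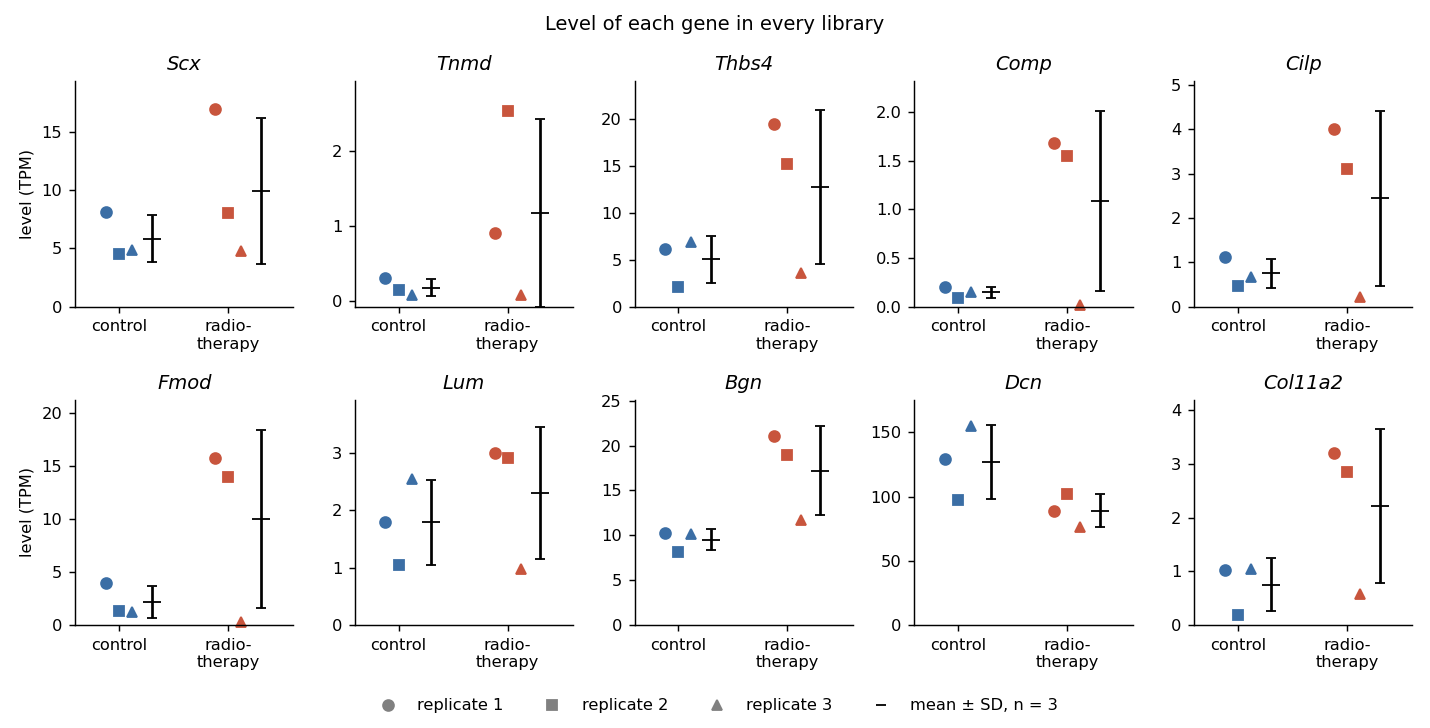
Level in TPM (vertical axes, 1 scale per gene) of the 10 genes in the 3 control libraries (blue) and the 3 radiotherapy libraries (red), with the symbol giving the replicate and the bar the mean ± SD. Radiotherapy replicates 1 and 2 sit above all control libraries in 8 of the 10 panels, and replicate 3 sits below all of them in Fmod, Cilp, Comp, Lum and Dcn.

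The level of Bgn relative to Dcn was 0.0793, 0.0836 and 0.0654 in control and 0.237, 0.185 and 0.153 in radiotherapy libraries. The groups did not overlap, and radiotherapy replicate 3 lay with the others of its group. As both levels come from 1 library, library scaling does not change this ratio. It was looked at after the single values were known, and 3 libraries against 3 cannot give an exact permutation p below 0.1. Of the summed TPM of Dcn, Bgn, Lum and Fmod, Dcn made up 89.0%, 90.2% and 91.7% in control and 69.1%, 74.1% and 85.5% in radiotherapy libraries. Bgn made up 7.05%, 7.54% and 6.00% against 16.4%, 13.7% and 13.1%. Fmod made up 12.2% and 10.1% in radiotherapy replicates 1 and 2, against 0.359% in replicate 3 and 0.748% to 2.71% in control.

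**Figure D2:**
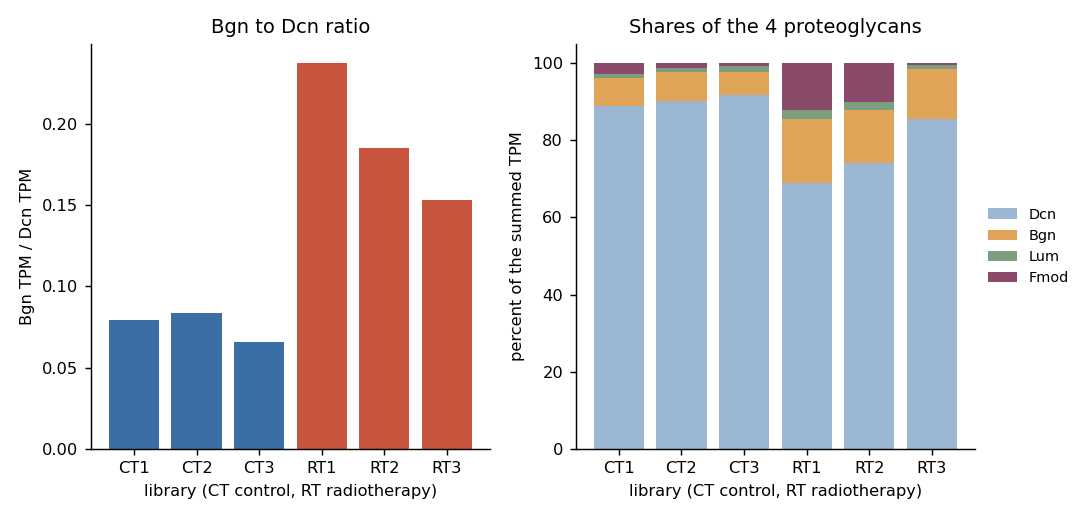
Left, the level of Bgn divided by that of Dcn in each library. Right, the percent of the summed TPM of Dcn, Bgn, Lum and Fmod that each gene held. The ratio was at most 0.0836 in control and at least 0.153 in radiotherapy libraries, and the Fmod share was above 10% only in radiotherapy replicates 1 and 2.

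In control muscle the levels, scaled for transcript length, ran from Dcn at 127 ± 28.7 TPM to Comp at 0.147 ± 0.0551 TPM (SD, n = 3). Bgn followed Dcn at 9.49 ± 1.17 TPM, and then came Scx and Thbs4 at 5.82 ± 2.0 and 5.03 ± 2.54 TPM, whose ranges overlapped. Fmod and Lum at 2.17 ± 1.51 and 1.79 ± 0.745 TPM overlapped too, as did Cilp and Col11a2 at 0.75 ± 0.334 and 0.75 ± 0.494 TPM. Tnmd and Comp were last and did not differ beyond their spread. In radiotherapy replicates 1 and 2 Fmod lay above Lum by more than 10 TPM, whereas in replicate 3 it lay below Lum.

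Of the 8 genes tested with limma over all features, 0 passed an adjusted p of 0.05 in either direction, beside 0.0419% of features called higher and 0.0168% called lower. At an unadjusted p under 0.05, Bgn alone was higher, beside 1.18% of features, and 0 were lower, beside 13.3%. Its log2 change was 0.76 (SE 0.30, unadjusted p = 0.0378, adjusted p = 0.332 by limma), or 1.12 above the median of all features. Log2 changes were 1.22 (SE 0.96) for Fmod, 1.04 (SE 0.63) for Thbs4 and 0.79 (SE 0.46) for Col11a2. They were 0.76 (SE 0.55) for Cilp, 0.56 (SE 0.45) for Scx, 0.20 (SE 0.38) for Lum and -0.49 (SE 0.29) for Dcn. The value of Dcn lay 0.13 below the median of all features, so its lower TPM was close to the shift of the table as a whole. Above 0 lay 7 of the 8, with a median of 0.76, beside 21.5% of all tested features. Cilp and Col11a2 reached the 1 TPM filter only through the radiotherapy libraries, so this count is a description and no test.

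The library left out next was singled out from these same data, so its adjusted p-values describe these libraries only. Leaving out radiotherapy replicate 1 or 2 instead gave 0 passing genes. Without radiotherapy replicate 3, 5 of the 8 genes passed as higher by limma, beside 1.98% of all tested features, and 0 passed as lower, beside 27.6%. These were Fmod with a log2 change of 2.41 (SE 0.38, adjusted p = 0.0146), Cilp with 1.39 (SE 0.25, adjusted p = 0.0178) and Bgn with 1.01 (SE 0.19, adjusted p = 0.0197). Col11a2, at 1.25 (SE 0.31, adjusted p = 0.0344), and Thbs4, at 1.70 (SE 0.44, adjusted p = 0.0369), completed them. As Cilp and Col11a2 passed the filter only through the radiotherapy libraries, the 5 of 8 is a description, and of the 6 genes with a control mean of 1 TPM or more 3 passed (Fmod, Thbs4 and Bgn). Scx at 0.94 (SE 0.38, adjusted p = 0.106), Lum at 0.54 (SE 0.28, adjusted p = 0.179) and Dcn at -0.39 (SE 0.24, adjusted p = 0.247) did not pass by limma. Radiotherapy replicates 1 and 2 lay above every control library in 8 of the 10 genes, Scx and Dcn being the exceptions, and in 6 of the 8 tested genes, beside 6.17% of tested features. In Fmod, Cilp and Lum, and in Comp, which was not tested, replicate 3 was in addition below every control library. This pattern was seen in 2.65% of tested features. As Cilp and Col11a2 reached the filter only through the radiotherapy libraries, these counts too are descriptions. Replicate 3 was the lowest of the 6 libraries in 4 of the 8 tested genes, namely Fmod, Cilp, Lum and Dcn, beside 14.7% of tested features. Leaving out control replicate 2 as well was added after the data were examined, as both libraries had the lowest slow-fibre and Schwann cell marker sums of their groups. The same 5 genes then passed as higher, beside 2.35% of tested features, and 0 as lower, beside 34.2%. This left out 1 library of each group, both singled out from these same data, so these calls too are descriptions and no further support.

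**Figure D3:**
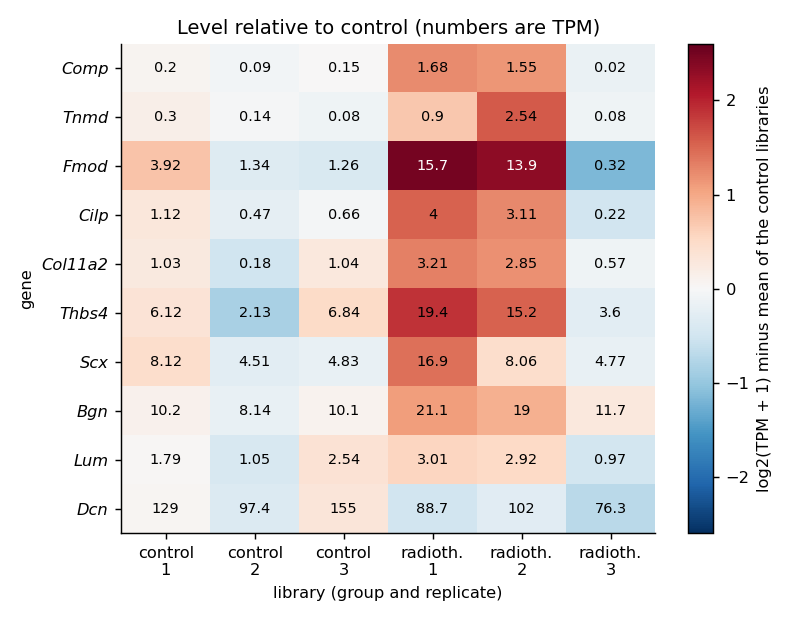
Colour gives log2(TPM + 1) of each gene (rows) in each library (columns) minus the mean of the control libraries, and the printed number is the TPM. Fmod runs from 0.32 TPM in radiotherapy replicate 3 to 15.7 TPM in replicate 1, and Dcn is the one row without raised values in radiotherapy replicates 1 and 2.

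**Figure D4:**
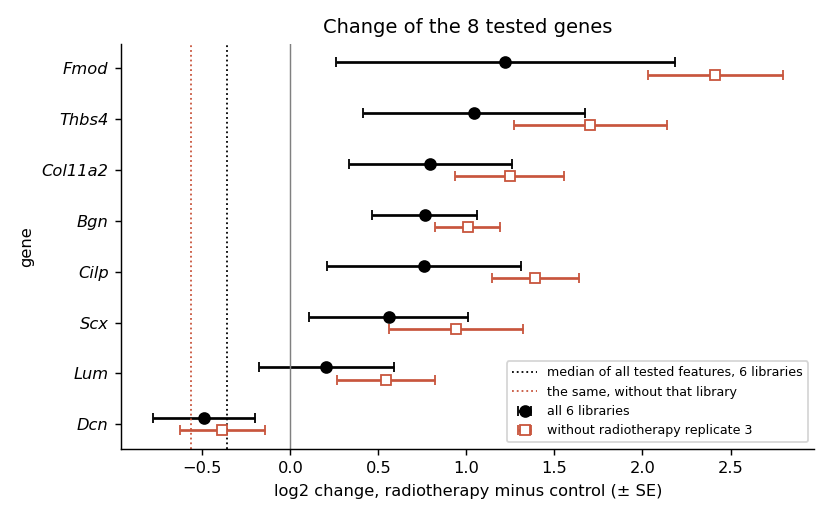
Log2 change (horizontal axis, radiotherapy minus control, ± SE) of the 8 tested genes from limma with all 6 libraries (black) and without radiotherapy replicate 3 (red), with the median of all tested features as dotted lines. The change of Fmod goes from 1.22 to 2.41 and its SE from 0.96 to 0.38, while that of Dcn stays near the dotted lines.

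The other small leucine-rich proteoglycans were not called by limma with all 6 libraries. Of 13 listed, 6 were tested, 0 passed in either direction over all features, and 2 had a log2 change above 0. Podn, podocan, was at 1.51 ± 0.802 and 1.95 ± 1.08 TPM in the controls and radiotherapy muscle. Prelp, which links basement membranes to collagen, was at 4.61 ± 2.13 and 4.91 ± 0.956 TPM, and Ogn, osteoglycin, at 4.36 ± 1.81 and 4.64 ± 3.78 TPM (SD, n = 3 per group). The level of Ogn was 6.41, 7.20 and 0.30 TPM over the radiotherapy replicates against 2.40 to 5.97 TPM in control, with replicate 3 again the lowest of the 6. Tsku, tsukushi, was at 1.32 ± 0.241 and 1.33 ± 1.65 TPM with replicate 3 the highest of its group at 3.24 TPM against 0.36 and 0.39 TPM. Without radiotherapy replicate 3 Tsku was called lower (adjusted p = 0.0453 by limma). It was 1 of the 6 tested, beside 27.6% of all tested features. Kera, keratocan, and Chad, chondroadherin, both under the filter and picked here for their values, were at 1.09, 2.30 and 0.00 TPM and at 0.78, 1.69 and 0.00 TPM in radiotherapy libraries. In control Kera was at 0.02, 0.00 and 0.05 TPM and Chad at 0.44, 0.00 and 0.03 TPM.

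Several of these genes stand side by side in the genome. In the RefSeq gene order Dcn, Lum, Kera and Epyc are consecutive protein-coding genes on chromosome 10, and Optc, Prelp and Fmod are consecutive on chromosome 1. Ecm2, Aspn, Omd and Ogn are consecutive on chromosome 13. Neighbours did not share 1 pattern, as Lum and Kera were highest in radiotherapy replicates 1 and 2 while Dcn was highest in control replicate 3. Prelp, next to Fmod, had levels of 4.26, 4.47 and 6.01 TPM after radiotherapy, highest in the replicate where Fmod was lowest. In control Prelp was at 6.82, 2.58 and 4.42 TPM, and both genes were highest in control replicate 1.

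Of 14 other tendon genes and collagens of tendon fibrils, 8 were tested and 0 passed by limma with all libraries, with 4 higher at an unadjusted p under 0.05, beside 1.18% of all tested features. Those 4 were Col3a1, Col1a1, Col1a2 and Col5a1, all chains of fibrillar collagens, with log2 changes of 1.71 (SE 0.37), 1.67 (SE 0.50), 1.42 (SE 0.49) and 0.92 (SE 0.37). Ratios to Col1a1 within a library were chosen after the levels were seen. Dcn per Col1a1, a ratio of TPM, was 62.9, 72.1 and 76.2 in control and 8.31, 7.30 and 25.4 in radiotherapy libraries. Bgn per Col1a1 was 4.99, 6.03 and 4.99 against 1.97, 1.35 and 3.89, so both proteoglycans were lower relative to this collagen chain after radiotherapy, with no overlap between the groups. Fmod per Col1a1 overlapped between the groups, at 1.91, 0.993 and 0.621 against 1.47, 0.996 and 0.107. Without radiotherapy replicate 3, Tppp3, a marker of the tendon sheath, passed as higher with Col1a1, Col1a2 and Col3a1 (4 of 8, beside 1.98% of all tested features). Mkx, Col22a1, Col14a1, Tnc and Col12a1 were also named after their values were seen. Mkx, which encodes the tendon factor mohawk, stayed at or below 0.20 TPM in all 6 libraries. Col22a1, a collagen of the junction of muscle and tendon that was under the filter, was at 0.48, 0.18 and 0.35 TPM in the controls and at 1.11, 1.62 and 0.22 TPM in radiotherapy libraries. Genes under the filter did not share 1 pattern. Col14a1 was at 1.29, 0.22 and 0.86 TPM against 1.72, 1.81 and 0.06 TPM. Tnc and Col12a1 were highest in radiotherapy replicate 3. Tnc was at 0.23, 0.17 and 0.04 TPM against 0.57, 0.52 and 1.55 TPM, and Col12a1 at 0.35, 0.29 and 1.13 TPM against 0.69, 0.69 and 1.71 TPM.

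Among relatives of Thbs4, Thbs3 was at 1.34, 0.92 and 1.20 TPM in the controls and 5.82, 2.70 and 3.22 TPM in radiotherapy libraries. Every radiotherapy library was above every control library, beside 1.73% of all tested features. The log2 change of Thbs3 was 1.14 (SE 0.31, adjusted p = 0.276 by limma). Without radiotherapy replicate 3 it passed as higher (adjusted p = 0.0355 by limma), beside 1.98% of all tested features. Thbs1, an activator of latent TGF-beta, was at 2.22, 0.67 and 0.87 TPM and at 0.41, 0.17 and 8.94 TPM, highest in radiotherapy replicate 3, where Thbs4 was the lowest of its group. Of the 5 relatives listed, 2 were tested and 0 passed.

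Of 19 listed enzymes that build the sugar chains of these proteoglycans, 18 were found and 10 tested, 0 passed by limma, and 8 had a log2 change below 0, with a median of -0.30 beside -0.36 for all features. Fam20b, a kinase that acts on the xylose linking chain to protein, was at 10.65, 7.70 and 6.71 TPM in the controls and at 1.57, 2.49 and 4.49 TPM in radiotherapy libraries. All 3 radiotherapy libraries were below every control library, beside 19.3% of tested features, and the log2 change was -1.33 (SE 0.35, adjusted p = 0.276 by limma). Csgalnact2, which starts chondroitin chains, was at 6.84 ± 1.42 and 4.15 ± 2.04 TPM, and B3gat3, which completes the linker, at 27.1 ± 3.01 and 21.3 ± 2.78 TPM (SD, n = 3 per group). Chst1, which adds sulfate to keratan chains, was at 0.823 ± 0.535 and 2.0 ± 1.61 TPM. Without radiotherapy replicate 3, Fam20b and Csgalnact2 passed as lower (adjusted p = 0.0153 and 0.0301 by limma), 2 of the 10 tested, beside 27.6% of all tested features.

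Markers of other tissues and cells were read beside these values. Slow-fibre genes summed to 951, 76.7 and 1281 TPM in control, against 999, 1869 and 219 TPM after radiotherapy, and all 6 of 6 listed genes averaged above 1 TPM. Schwann cell genes summed to 133, 21.5 and 78.7 TPM and to 144, 187 and 23.6 TPM, also with 6 of 6 tested. Control replicate 2 and radiotherapy replicate 3 thus had the lowest sums of their groups in both lists. Control replicate 2 was also the lowest control library in 8 of the 10 genes described here, all but Fmod and Tnmd. Of the 8 skeletal muscle fibre genes, radiotherapy replicates 1 and 2 lay above every control library in 4, beside 6.17% of tested features. Replicate 3 was the lowest of the 6 libraries in 5 of the 8, beside 14.7%. Acta1 and Mylpf passed as higher without that library (adjusted p = 0.0455 and 0.0245 by limma), 2 of 8, beside 1.98% of tested features. The part of these markers in the results was not tested.

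Cartilage also makes Comp, Cilp and Col11a2. Acan and Matn3 were listed at 0 in all 6 libraries, and the 8 listed cartilage genes other than Prg4 summed to 0.20 to 0.42 TPM in control, against 0.24 to 0.72 TPM after radiotherapy. Sox9, at 0.30, 0.14 and 0.35 TPM in control and 0.07, 0.01 and 0.67 TPM after radiotherapy, set the order of that sum. Sox9, like Prg4, was highest in radiotherapy replicate 3, and was left out next after its values were seen. Without Sox9 the sum was 0.07, 0.06 and 0.07 TPM in control, and 0.51, 0.23 and 0.05 TPM after radiotherapy, all under 1 TPM. The order of the radiotherapy libraries thus depended on which genes were left in the sum. Within it Col9a1, a collagen chain of cartilage, was at 0.00, 0.01 and 0.03 TPM against 0.20, 0.19 and 0.05 TPM, with no overlap, and Col2a1 reached 0.31 TPM in radiotherapy replicate 1 and at most 0.01 TPM elsewhere. Sox9, Col9a1 and Col2a1 were named after their values were seen. Prg4, lubricin, which tendon surface also makes, was at 14.6, 4.55 and 13.6 TPM and at 22.2, 5.14 and 62.8 TPM. Among bone markers, Bglap and Sp7 were listed at 0 in all 6 libraries, and the 7 genes had a sum of 3.98 to 15.55 TPM in the controls, with 5.11 to 9.21 TPM after radiotherapy. Spp1, at 12.16 TPM in control replicate 1, set the top of the control range. Alpl, at 3.14, 2.20 and 3.13 TPM against 5.20, 3.76 and 3.49 TPM, did not overlap. Dmp1 did not overlap either, at 0.03, 0.03 and 0.00 TPM against 0.16, 0.16 and 0.15 TPM. The groups overlapped for Spp1, Runx2 and Ibsp. Alpl, Dmp1 and Spp1 were named after their values were seen. Keratinocyte markers summed to at most 3.05 TPM, with Dsg3 at 0 throughout. Fibroblast and fibro-adipogenic progenitor markers, 10 of 11 tested, summed to 382 to 614 TPM in control, against 271 to 448 TPM after radiotherapy, lowest in replicate 3. Ly6a and Gsn had the highest levels in that sum. Of the 10 tested, 6 had a log2 change above 0, beside 21.5% of all tested features. Radiotherapy replicates 1 and 2 lay above every control library in 5 of the 11 (Dpt, Pi16, Mfap5, Clec3b and Gsn), beside 6.17%. Pi16 was at 4.57, 2.70 and 5.06 TPM against 8.53, 9.69 and 6.58 TPM, with no overlap (beside 1.73%). Ly6a was lower with no overlap (beside 19.3%). Adipocyte genes summed to 55.3 to 435 TPM and 174 to 331 TPM. Endothelial genes were at 69.7 to 81.3 TPM in the controls and at 51.3, 49.4 and 156 TPM in radiotherapy libraries, and macrophage genes at 38.8 to 123 TPM and at 33.2, 58.1 and 323 TPM. Radiotherapy replicate 3 had the highest endothelial and macrophage sums of the 6 libraries and the lowest fibroblast sum, but the genes within each list differed. It was the highest library for 3 of 6 endothelial genes (Cdh5, Cldn5 and Emcn) and the lowest for Tek, and the highest for 3 of 6 macrophage genes (Cd68, Csf1r and Lyz2). Of the 11 fibroblast genes it was the lowest for Ly6a, Gsn, Dpt and Clec3b and the highest for Pdgfra, Smoc2 and Col15a1. The part of these lists in the results was not tested.

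**Figure D5:**
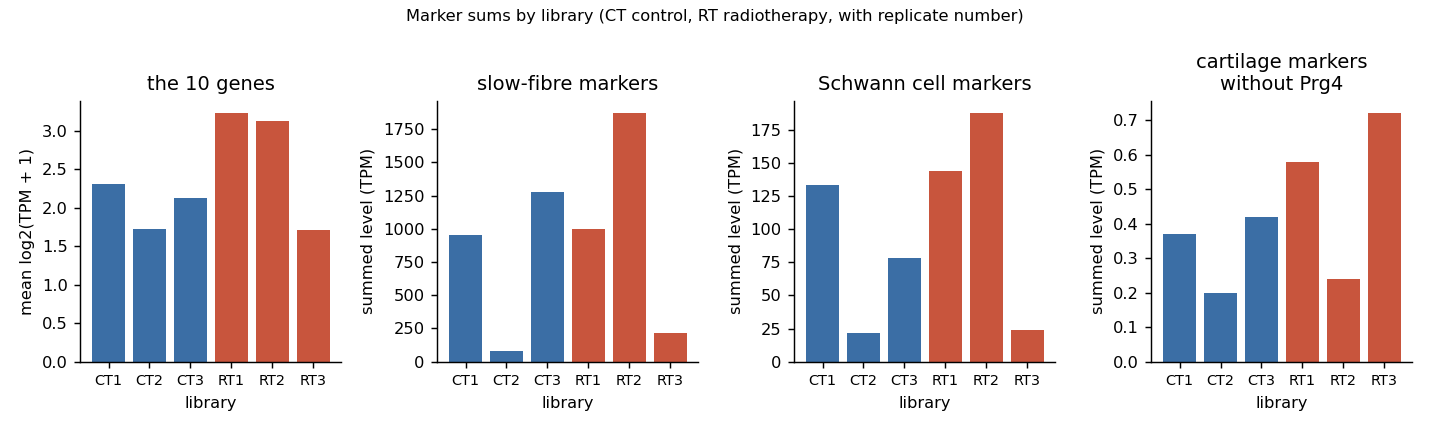
Bars give, for each library, the mean log2(TPM + 1) of the 10 genes and the summed TPM of slow-fibre, Schwann cell and cartilage markers (Prg4 left out). Control replicate 2 and radiotherapy replicate 3 are lowest of their groups in the first 3 panels, and cartilage markers stay at or below 0.72 TPM.

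Genes outside the list were ranked by how closely their levels followed the mean profile of the 8 tested genes over the 6 libraries, among 6309 named genes with a mean of at least 5 TPM. Pearson's r is given as a description only, since the libraries share 1 scaling and the genes were picked for it. Tnxb, tenascin-X, a matrix glycoprotein of collagen-rich tissue, came first (r = 0.992), at 5.35, 3.27 and 5.07 TPM in the controls and 8.02, 7.07 and 3.02 TPM in radiotherapy libraries. The next were Nudt14, Rabep2, Car3, Mtus1, Pgm1, Igfbp5, Mylk4, Phkg1 and Ltbp4, with r from 0.987 down to 0.973. Ltbp4, which binds latent TGF-beta in the matrix, was at 11.9, 7.94 and 10.2 TPM and at 33.4, 26.1 and 5.48 TPM. Mylk4, a kinase of striated muscle, ran from 54.96 and 61.1 TPM in radiotherapy replicates 1 and 2 to 0.38 TPM in replicate 3, so genes of muscle fibres were among them. For Fmod alone the closest were Dbp, Cygb, Calm3, Ltbp4 and Sypl2, with r from 0.993 to 0.982. Dbp, a clock-controlled transcription factor, was at 12.3, 3.71 and 6.00 TPM in the controls and at 107, 82.9 and 1.54 TPM in radiotherapy libraries.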

How the data were processed

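RNA-seq of 3 control and 3 radiotherapy gastrocnemius libraries was analysed, grouped by the labels. The deposited table holds TPM, which the authors scaled for transcript length and to 1 fixed total per library. The submitters' processing notes name HISAT2, StringTie, RSEM and the build mm9 with no version or role. The annotation and read counts are not given in the sources used here, and no sequence was read by the files' coordinates. Promoter windows and gene order came from RefSeq (GRCm38.p6) and overlaps from GENCODE M21, matched by symbol.

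The 11938 features that averaged 1 TPM or more were tested two-sided on log2(TPM + 1) with limma 3.58.1 in R 4.3.3 (trended empirical Bayes, no covariates) and Benjamini-Hochberg adjustment over all of them, with a threshold of 0.05. The fit was also run on simulated data with independent noise for each gene and no library that stood apart. That run therefore does not bear on the effect of radiotherapy replicate 3. The members and lists were chosen with earlier results of these data known. All 10 genes are shown. From each pathway list the genes past the threshold or the up to 4 with the smallest p are named, with exceptions stated. Of 19 sugar-chain enzymes, Chst6 was not matched. Alternatives were other pseudocounts (0.1 and 0.5), filters, scalings and variance settings, a block for the replicate number, and each library left out in turn. Figures were drawn with matplotlib 3.10.9.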

Additional observations from a re-analysis of the deposited data

How the results depend on the processing

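With all 6 libraries, 0 of the tested members (8, or 5 at a mean of at least 5 TPM and 10 with no filter) passed as higher or lower under every alternative pseudocount, filter, scaling and variance setting tried. With the replicate number as a block, 0 passed in either direction. The labels do not say whether the replicate numbers pair the samples. Deviations of same-numbered libraries from their group means had correlations of -0.045, -0.112 and -0.201. With 3 libraries per group and radiotherapy replicate 3 apart from its group, these values cannot decide it. Leaving out 1 library at a time gave 0 to 5 genes passing as higher and 0 as lower each time, the 5 only without radiotherapy replicate 3. Leaving out control replicate 2 together with it, chosen after the data were examined, gave 5 higher and 0 lower, which is a description only. Without 1 library at a time the log2 change of Lum ran from -0.0011, without control replicate 2, to 0.54, without radiotherapy replicate 3, and no other direction turned in any planned setting. The median log2 change of all features went from -0.36 to 0.015 with median-of-ratios scaling and -0.016 with quantile normalisation. The change of Dcn was then -0.024 and -0.11, and that of Bgn 1.20 and 1.18. Without a filter on low values Tnmd had a log2 change of 0.73 (SE 0.42) and Comp of 0.74 (SE 0.38), adjusted p = 0.640 and 0.602 by limma. The depth is unknown, so levels under 1 TPM, as in Comp, Tnmd, Kera and Chad, carry an error that only the 3 libraries of a group can show.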
